A study of Mus musculus with 8 samples.

Results

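Annexins are calcium-dependent proteins that bind acidic phospholipids on the inner and outer faces of cell membranes, where they link membranes to one another and to the cytoskeleton and take part in vesicle traffic and in sealing torn membranes. Several of them work as complexes with small calcium-binding S100 proteins, and annexins are abundant in epithelia, in placental trophoblast and in many blood cells. The members described here were Anxa1, Anxa2, Anxa3, Anxa4, Anxa5, Anxa6, Anxa7, Anxa8 and Anxa11, and every probe set that the platform annotation assigned to just 1 of these symbols was taken. By this rule 8 of the 9 genes had probe sets, 19 in all, of 45037 probe sets and 18193 genes on the array. Anxa11 had no probe set of its own, since its single probe set was shared with other symbols, and it was not analysed here.

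Expression was profiled in total RNA of mouse embryo propers on 8 Affymetrix arrays, in 4 groups of 2 arrays: Runx1 knockout and wild-type embryos at E12, and Runx1 knockout and wild-type embryos at E8.5. Runx1 is a transcription factor without which the embryo forms no definitive blood stem cells, and the design asked which genes depended on it at each stage. The Runx1 knockout mice were kept on a BalbC background, and no separate strain is stated for the wild-type embryos. The knockout lacked Runx1 in the whole embryo rather than in 1 cell type. Pooling of embryos before RNA extraction is not given in the sources used here. Values are log2 of the deposited intensities, so a difference of 1 is a doubling of signal. Fewer cells of a type and less RNA per cell cannot be told apart in RNA of whole embryos.

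The E8.5 wild-type replicates stood further apart than those of any other group. The standard deviation of the difference between replicates over all probe sets was 0.40 in E8.5 knockout and 0.83 in E8.5 wild-type embryos, and 0.23 in E12 knockout and 0.49 in E12 wild-type embryos. E8.5 wild-type replicate 1 also had an Xist level of 11.51, against 5.93 to 6.25 on the other E8.5 arrays, and E12 knockout replicate 2 had 10.33, against 5.12 to 5.33 on the other E12 arrays. Runx1 itself had 6 probe sets, none of them lower by an absolute moderated t above 3 in knockout embryos of either stage, and 1 (1422864_at) read 6.09 and 6.33 in E8.5 knockout embryos, against 5.26 and 5.09 in E8.5 wild-type embryos. Since the position of these probes against the deleted sequence is not given in the sources used here, they do not check the labels. At E12 the platelet chemokine gene Pf4 read 4.86 and 4.82 in knockout embryos, against 10.31 and 10.79 in wild-type embryos. The brightest probe sets also read lower at E12, where the 99th percentile of an array was 10.5 to 11.1, against 12.2 to 12.3 at E8.5. How far the stages share a scale is therefore unknown.

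The promoter windows of the 4 annexin genes that held any of the motifs searched are shown, so that the matches can be read in place. RefSeq windows on GRCm38.p6, from 250 bases before to 50 bases after the annotated start, matched 7 of the 9 genes with 9 windows, and the letters searched were the RUNX motifs TGTGGT and TGCGGT and the AP-1 motif TGANTCA on both strands and the TATA box TATAAA on the gene's strand. Capitals mark the matches, and no match overlapped another.
Anxa1, chr19:20390622-20390921, minus strand: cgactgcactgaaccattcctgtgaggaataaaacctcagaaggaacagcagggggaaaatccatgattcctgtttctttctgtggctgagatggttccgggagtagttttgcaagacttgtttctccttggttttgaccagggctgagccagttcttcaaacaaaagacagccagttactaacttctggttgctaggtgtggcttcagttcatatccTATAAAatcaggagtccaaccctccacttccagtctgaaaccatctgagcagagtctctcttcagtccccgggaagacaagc
Anxa2, chr9:69453433-69453732, plus strand: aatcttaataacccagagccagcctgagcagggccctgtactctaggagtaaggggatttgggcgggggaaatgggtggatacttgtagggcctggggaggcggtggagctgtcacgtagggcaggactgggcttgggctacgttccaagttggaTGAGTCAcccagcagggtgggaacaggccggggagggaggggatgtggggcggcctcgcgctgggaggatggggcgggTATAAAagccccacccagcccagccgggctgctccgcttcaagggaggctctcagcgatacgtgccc
Anxa5, chr3:36475838-36476137, minus strand: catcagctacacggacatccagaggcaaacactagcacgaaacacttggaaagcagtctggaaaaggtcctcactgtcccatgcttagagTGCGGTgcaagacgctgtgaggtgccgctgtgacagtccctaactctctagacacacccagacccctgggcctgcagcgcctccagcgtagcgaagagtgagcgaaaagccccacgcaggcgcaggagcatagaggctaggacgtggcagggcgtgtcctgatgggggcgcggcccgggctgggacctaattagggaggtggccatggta
Anxa8, chr14:34085729-34086028, plus strand: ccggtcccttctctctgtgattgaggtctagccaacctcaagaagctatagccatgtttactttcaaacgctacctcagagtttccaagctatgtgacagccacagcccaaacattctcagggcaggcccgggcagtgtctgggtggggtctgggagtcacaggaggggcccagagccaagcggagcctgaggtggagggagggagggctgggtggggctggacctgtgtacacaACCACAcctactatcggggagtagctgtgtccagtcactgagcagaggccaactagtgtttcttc

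The Anxa1 window held a TATA box whose first base was 32 bases before the start. The Anxa2 window held a TATA box at 17 bases and an AP-1 motif, here TGAGTCA, at 95 bases before the start. The Anxa5 window held TGCGGT at 160 bases, and the Anxa8 window held TGTGGT on the opposite strand at 15 bases before the start, printed as its complement ACCACA. The 2 windows of Anxa4, the 2 of Anxa7 and that of Anxa11 held none of these letters. Among all 32851 promoter windows, 16.8% held TGTGGT, 6.45% held TGCGGT, 8.32% held TATAAA and 7.81% held TGANTCA. A match describes the letters alone and is no evidence that a factor bound there.

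At E8.5, 5 annexin genes (Anxa1, Anxa2, Anxa4, Anxa5 and Anxa7) were far higher in wild-type replicate 1 than on any other E8.5 array, and the knockout difference of most of them turned on that array. The family was chosen by the E8.5 knockout differences, with that of Anxa1 already known, so the E8.5 knockout values are given as a description, without a test. Only Anxa1 had a brightest probe set that read lower in both knockout embryos than in both wild-type embryos. Of the 19 probe sets, 13 were highest of the E8.5 arrays in wild-type replicate 1, as were 28.8% of all probe sets, and 8 were more than 1 log2 unit higher in wild-type replicate 1 than on each other E8.5 array, a gap seen in 2.52% of all probe sets. Among brightest probe sets with a mean above the array median, of 11669, that share was 4.26%.

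Anxa1, a glucocorticoid-induced protein that acts through formyl peptide receptors to damp inflammation, read 4.68 and 4.35 in E8.5 knockout embryos, against 10.05 and 6.03 in E8.5 wild-type embryos (1448213_at). The group means were 4.51 ± 0.23 in knockout and 8.04 ± 2.84 in wild-type embryos (SD, n = 2 each), a log2 difference of -3.53 (SE 1.13). The groups did not overlap, and wild-type replicate 1 exceeded the next array by 4.02 while wild-type replicate 2 exceeded the knockout mean by 1.52. Without wild-type replicate 1 the difference was -1.52, and without wild-type replicate 2 it was -5.54. The dimmer Anxa1 probe set (1444016_at) read 3.86 and 4.02 in knockout embryos, against 4.62 and 3.77 in wild-type embryos, and these groups overlapped.

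Anxa2, which pairs with S100a10 and binds plasminogen at the cell surface, read 9.97 and 8.91 in E8.5 knockout embryos, against 12.69 and 9.72 in E8.5 wild-type embryos (1419091_a_at). Its log2 difference was -1.77 (SE 0.90), and without wild-type replicate 1 it was -0.28. Knockout replicate 1 lay above wild-type replicate 2, so the groups overlapped. A second Anxa2 probe set (1437692_x_at, a type in which some probes can bind other transcripts) read 5.98 and 5.84 in knockout embryos, against 6.67 and 6.23 in wild-type embryos, without overlap. The third (1437691_at) was dim, at 3.19 and 3.33 in knockout and 3.20 and 3.50 in wild-type embryos. Anxa3, which is known from neutrophils, read 7.49 and 6.58 in knockout embryos, against 8.01 and 7.19 in wild-type embryos, and its groups overlapped.

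Anxa4, an annexin of epithelial cell membranes, carried the same array pattern in all 3 of its probe sets. The brightest (1421223_a_at) read 7.40 and 7.62 in E8.5 knockout embryos, against 10.55 and 6.90 in E8.5 wild-type embryos. The next (1424176_a_at) read 5.08 and 4.15 in knockout embryos, against 8.88 and 4.30 in wild-type embryos. The last (1457658_x_at) read 4.14 and 3.77 in knockout embryos, against 6.74 and 3.52 in wild-type embryos. In each of them both knockout arrays lay below wild-type replicate 1, and at least 1 knockout array lay above wild-type replicate 2. The log2 differences were -1.22 (SE 1.02), -1.98 (SE 1.30) and -1.18 (SE 0.91), and without wild-type replicate 1 they were 0.61, 0.31 and 0.43.

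Anxa5, the phosphatidylserine-binding annexin used to stain dying cells and known as an anticoagulant cover on placental trophoblast, read 9.66 and 7.99 in E8.5 knockout embryos, against 11.86 and 8.58 in E8.5 wild-type embryos. Its log2 difference was -1.39 (SE 1.04), and it turned to 0.25 without wild-type replicate 1. Anxa7, also called synexin, promotes the fusion of secretory granules and binds sorcin. It read 8.74 and 9.15 in knockout embryos, against 10.33 and 8.59 in wild-type embryos (1416138_at). Its log2 difference was -0.52 (SE 0.52), and it turned to 0.35 without wild-type replicate 1. A further Anxa7 probe set (1416137_at) had the same order, at 5.79 and 5.85 in knockout and 6.92 and 5.36 in wild-type embryos, while 1438764_at did not overlap, at 6.53 and 6.40 in knockout and 7.45 and 6.74 in wild-type embryos.

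Anxa6 and Anxa8 did not follow that array. Anxa6, the longest annexin, which binds to endosomes and the cell cortex, read 7.24 and 7.29 in E8.5 knockout embryos, against 6.73 and 7.16 in E8.5 wild-type embryos (1415818_at), a log2 difference of 0.32 (SE 0.27) without overlap. Another Anxa6 probe set (1429247_at) read 5.40 and 5.57 in knockout embryos, against 5.06 and 7.47 in wild-type embryos, so here wild-type replicate 2 stood out. The remaining Anxa6 probe sets (1429246_a_at and 1442288_at) differed by -0.05 and 0.01. Anxa8, an annexin of squamous epithelia, was dim throughout, at 4.80 and 4.57 in knockout and 4.68 and 4.57 in wild-type embryos (1417732_at). Its other probe set (1425789_s_at, a type that can detect related genes) differed by 0.03.

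**Figure D1:**
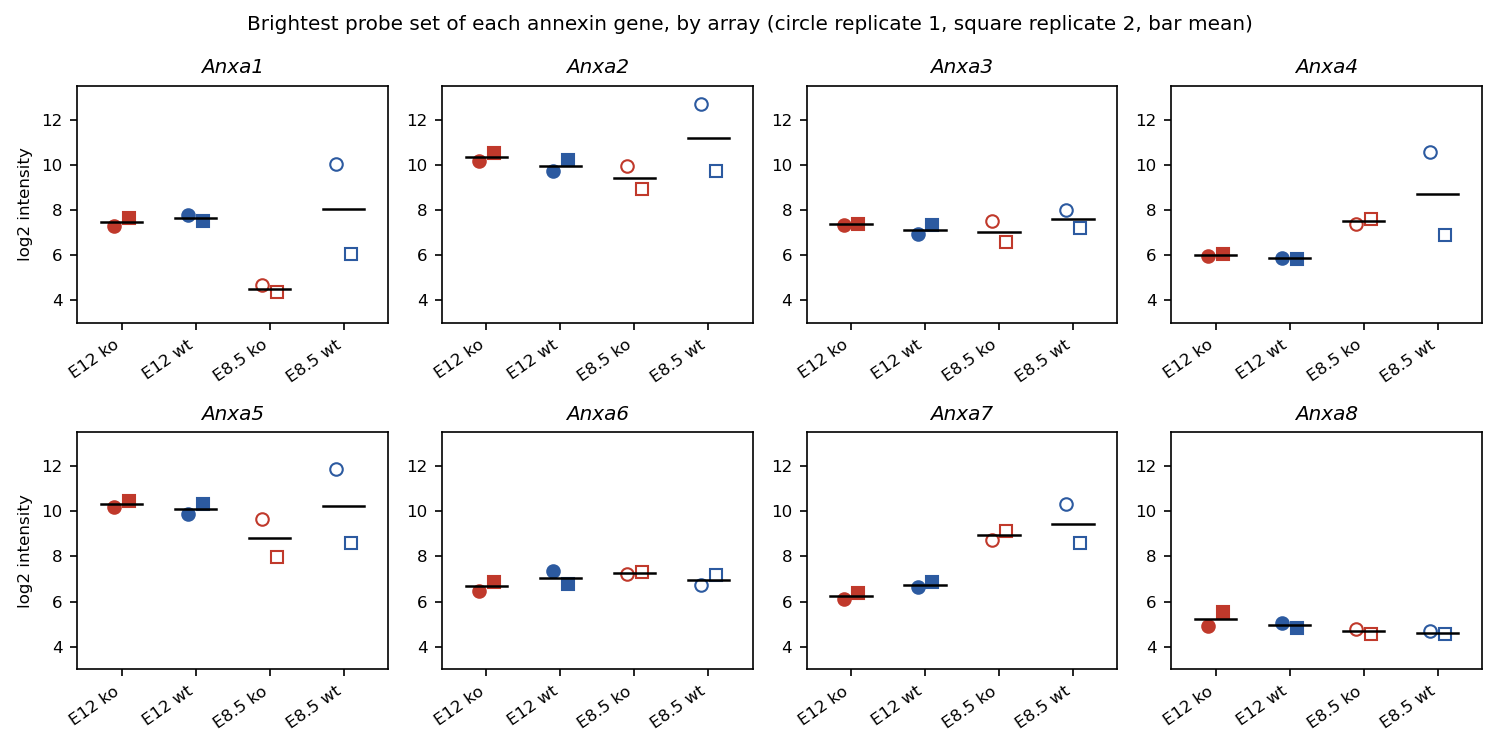
Log2 intensity of the brightest probe set of each of the 8 annexin genes on each array, with knockout in red and wild type in blue, filled symbols for E12 and open symbols for E8.5, circles for replicate 1, squares for replicate 2 and bars for the mean of 2 arrays. E8.5 wild-type replicate 1 lies far above the other E8.5 arrays in Anxa1, Anxa2, Anxa4, Anxa5 and Anxa7, and the 2 genotypes lie close together at E12.

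Across the family, 15 of 19 probe sets read lower in E8.5 knockout embryos, where 53.1% of all probe sets did so. Both knockout arrays lay below both wild-type arrays in 3 of 19 (background 16.1%) and above them in 1 of 19 (background 13.2%). One probe set, Anxa1 1448213_at, had an absolute moderated t above 3, the threshold of the study's methods, which 2.06% of all probe sets passed in either direction and 1.18% passed downwards. These counts come from the comparison that led to the choice of the family, and nothing is read from them. The median log2 difference was -0.54 over the annexin probe sets and -0.02 over all probe sets. Without wild-type replicate 1, 8 of 19 were lower (52.6% of all probe sets) and 11 higher, with a median of 0.11. Without wild-type replicate 2, 15 were lower (51% of all) and 4 higher, with a median of -0.97.

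**Figure D2:**
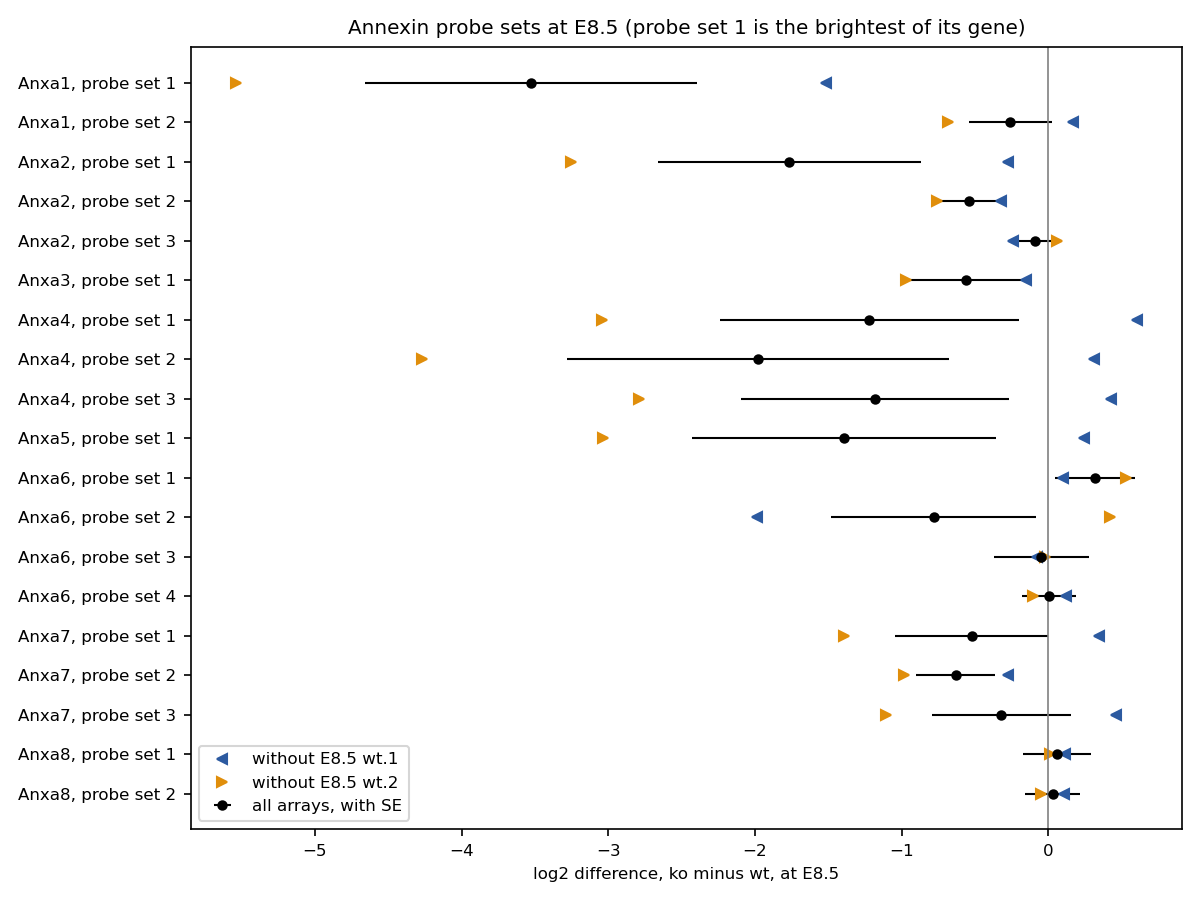
Log2 difference, knockout minus wild type, at E8.5 for each of the 19 annexin probe sets, with all arrays (black points, bars for the SE) and with either wild-type array left out (triangles). Without wild-type replicate 1 the 3 Anxa4 probe sets, Anxa5 and the brightest Anxa7 probe set lie above 0, and the brightest Anxa1 probe set lies at -1.52.

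Genes that mark trophoblast and epithelium were high on the same array. Of 12 measured trophoblast markers, 10 were highest of the E8.5 arrays in wild-type replicate 1, and their summed linear intensity was 1051 to 2990 in E8.5 knockout embryos, against 27543 and 1154 in wild-type replicates 1 and 2. Prl7a1, a placental prolactin-like hormone, read 4.31 and 4.17 in knockout embryos, against 12.96 and 4.37 in wild-type embryos. Tpbpa, the defining gene of the spongiotrophoblast, read 4.24 and 4.21 in knockout embryos, against 9.52 and 4.15 in wild-type embryos. Both genes thus stood at a similar low level on the 3 other E8.5 arrays. Peg10, another gene of this list, went otherwise and was high in both wild-type embryos. It read 4.21 and 4.36 in knockout embryos, against 6.29 and 6.09 in wild-type embryos. Epithelial markers summed to 13331 to 14437 in knockout embryos, against 36327 and 15541 in wild-type replicates 1 and 2. Knockout replicate 1 had more of some trophoblast markers than knockout replicate 2, with Elf5 at 6.51 and 3.74 and Ascl2 at 7.35 and 5.01, and Anxa2, Anxa3 and Anxa5 were likewise higher in knockout replicate 1, while Anxa4, at 7.40 and 7.62, and Anxa7, at 8.74 and 9.15, were lower there than in knockout replicate 2. Of 10 epithelial markers, 8 were highest in wild-type replicate 1. So were 6 of 10 megakaryocyte and platelet, 4 of 9 endothelial and 3 of 13 macrophage and granulocyte markers (28.8% of all probe sets). The summed intensities of these lists were also highest on that array, at 1208, 2979 and 779. None of 8 maternal decidua and none of 11 visceral endoderm and fetal liver markers was highest there. Markers of somites, muscle and heart, tissues of the embryo proper, deviated from the stage mean by 0.72 and 0.04 in knockout embryos, against -1.19 and 0.43 in wild-type replicates 1 and 2, so this array had the lowest mean level of them. The part of these markers in the annexin values was not tested.

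**Figure D3:**
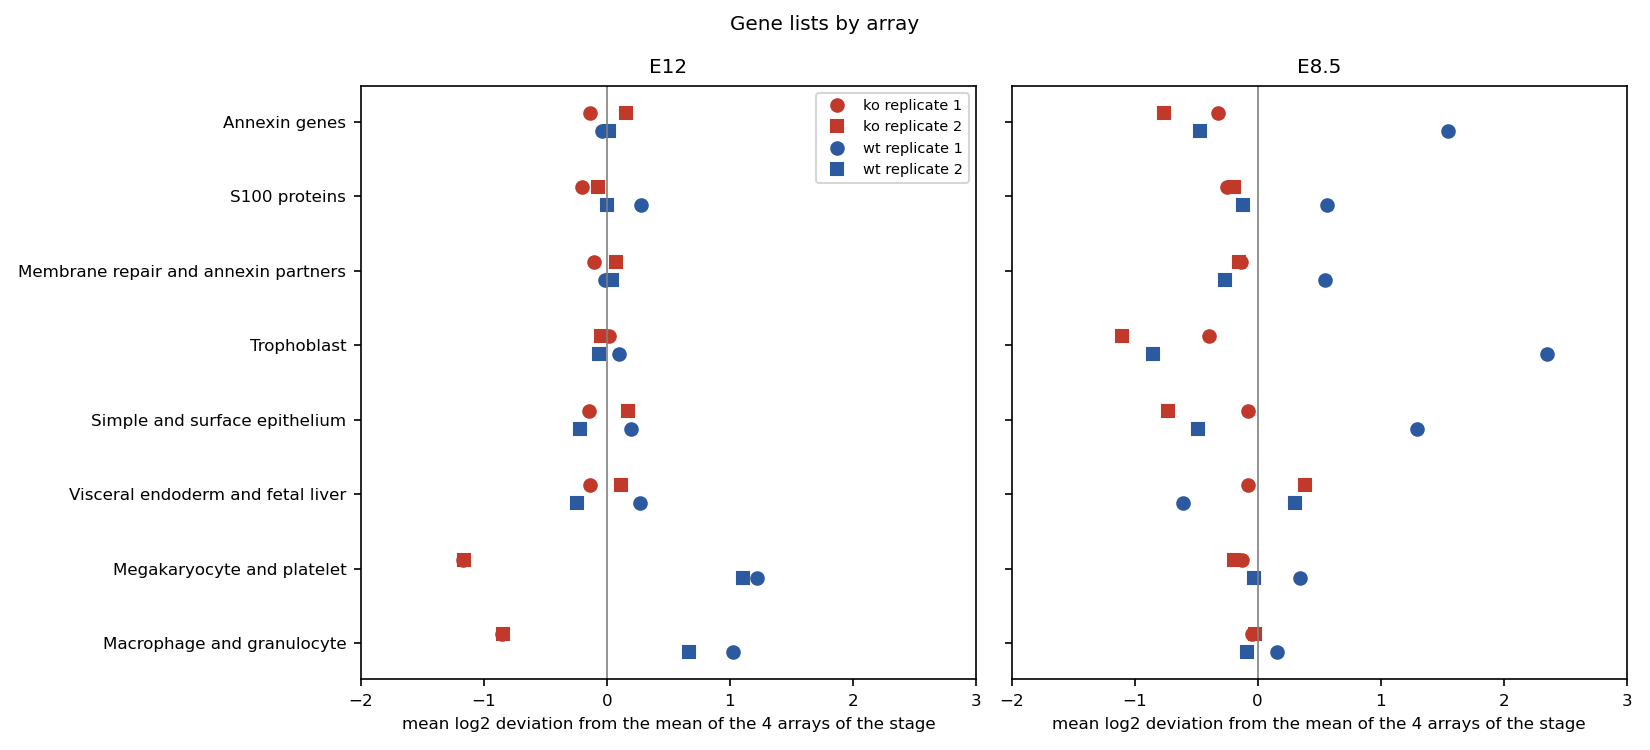
Mean log2 deviation of gene lists from the mean of the 4 arrays of a stage, at E12 (left) and E8.5 (right), with 1 symbol per array, red for knockout and blue for wild type. At E8.5 wild-type replicate 1 is highest for annexin genes (1.55), trophoblast markers (2.36) and epithelial markers (1.30), while at E12 annexin genes stay between -0.14 and 0.16.

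At E12 the annexins showed no knockout difference that passed a test, while platelet and macrophage genes were lower in the knockout embryos. None of the 19 probe sets had an absolute t above 3 in limma (background 0.655%), none had an adjusted p below 0.05 (background 0.0133%), and none had an unadjusted p below 0.05 (background 1.58%). All adjusted p were 1. Both knockout arrays lay below both wild-type arrays in 3 of 19 (background 15.8%) and above them in 3 of 19 (background 12.6%). The median log2 difference was 0.05 over the annexin probe sets and 0.01 over all probe sets.

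Anxa1 read 7.30 and 7.66 in E12 knockout embryos, against 7.76 and 7.49 in E12 wild-type embryos, a log2 difference of -0.14 (SE 1.13). Anxa2 read 10.18 and 10.54 in knockout embryos, against 9.74 and 10.20 in wild-type embryos, a log2 difference of 0.39 (SE 0.90). Both pairs of groups overlapped, and the 2 genotypes of each gene lay within 1 log2 unit of each other. The SE here is large because the fit shares 1 spread over all groups and takes in the E8.5 wild-type arrays. With the 4 E12 arrays fitted alone the SE was 0.20 for Anxa1 and 0.23 for Anxa2, and again none of the 19 passed an absolute t of 3.

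Anxa4 read 5.98 and 6.03 in E12 knockout embryos, against 5.88 and 5.85 in E12 wild-type embryos, and Anxa5 read 10.20 and 10.45 in knockout embryos, against 9.89 and 10.35 in wild-type embryos. Anxa3 read 7.34 and 7.38 in knockout embryos, against 6.94 and 7.33 in wild-type embryos. These 3 genes differed by 0.14 (SE 1.02), 0.20 (SE 1.04) and 0.23 (SE 0.38). Anxa7 was the member furthest below 0, at 6.11 and 6.38 in knockout embryos, against 6.63 and 6.88 in wild-type embryos, a log2 difference of -0.51 (SE 0.52) without overlap. Anxa6 read 6.46 and 6.89 in knockout embryos, against 7.36 and 6.77 in wild-type embryos. Anxa8 read 4.94 and 5.52 in knockout embryos, against 5.07 and 4.84 in wild-type embryos, and both of these overlapped. The 11 other annexin probe sets differed by between -0.36 and 0.34.

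On the same arrays, all 10 measured megakaryocyte and platelet markers were lower in E12 knockout embryos (47.5% of all probe sets were lower), 3 with an adjusted p below 0.05 in limma, with a median log2 difference of -2.32. All 13 macrophage and granulocyte markers were lower, 2 of them called, with a median of -1.28. Pf4 differed by -5.71 (SE 0.20, adjusted p = 0.00176) and Ctss, a lysosomal protease of macrophages, by -3.29 (SE 0.15, adjusted p = 0.00537). Trophoblast markers summed to 412 to 440 in E12 knockout embryos, against 413 to 476 in E12 wild-type embryos, and thus had no array that stood out at this stage.

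The knockout effect of the brightest Anxa1 probe set was -0.14 at E12 and -3.53 at E8.5, a difference of 3.38 (SE 1.60). For Anxa2 the effects were 0.39 at E12 and -1.77 at E8.5, a difference of 2.15 (SE 1.27), and for Anxa5 they were 0.20 and -1.39, a difference of 1.60 (SE 1.47). The interaction term did not pass for any of these genes, since of the 19 probe sets none had an absolute t above 3 (background 0.688%), an adjusted p below 0.05 (background 0.00444%) or an unadjusted p below 0.05 (background 1.87%) in limma. The interaction uses the E8.5 arrays on which the family was chosen. Without E8.5 wild-type replicate 1 it was past an absolute t of 3 in 2 of 19 probe sets (3.97% of all), and without E8.5 wild-type replicate 2 in 8 of 19 (6.51% of all).

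Between stages, Anxa7 was the 1 gene of the 8 measured members whose brightest probe set changed by the test. That probe set was lower at E12 in both genotypes. It read 6.11 and 6.38 in E12 knockout embryos, against 8.74 and 9.15 in E8.5 knockout embryos, a log2 difference of -2.69 (SE 0.52, limma adjusted p = 0.0135). In wild-type embryos it read 6.63 and 6.88 at E12, against 10.33 and 8.59 at E8.5, a log2 difference of -2.71 (SE 0.52, limma adjusted p = 0.0123). The stages did not overlap in either genotype. Leaving out E8.5 wild-type replicate 1 gave -1.84 in wild-type embryos, still called, while leaving out any 1 of the 4 knockout arrays in the knockout comparison, or E12 wild-type replicate 1 in the wild-type comparison, ended the call, with an adjusted p between 0.0539 and 0.0971. So did a fit of the wild-type arrays alone (adjusted p = 0.0801), and over all alternatives the adjusted p lay between 0.000353 and 0.0971. The other Anxa7 probe sets differed by 0.11 and -0.96 in knockout embryos and by -0.63 and -0.92 in wild-type embryos, none of them called. The probe sets of this gene thus disagreed in size and, in knockout embryos, also in sign. Markers of visceral endoderm and fetal liver moved with stage too, with a summed linear intensity of 3167 to 4165 in E12 knockout and 3759 to 4016 in E12 wild-type embryos, against 57851 to 78244 in E8.5 knockout and 39627 to 73291 in E8.5 wild-type embryos. Epithelial markers summed to 1163 to 1428 in E12 knockout and 1139 to 1488 in E12 wild-type embryos, far below their E8.5 sums. The brightest genes weigh most in such a sum. Of the 10 genes, 6 read lower at E12 in knockout embryos (47.9% of all probe sets) and 8 in wild-type embryos (50.5% of all). The rest read higher, among them Krt5, at 7.61 and 8.11 in E12 knockout embryos, against 5.37 and 5.25 in E8.5 knockout embryos. The part of these markers in the stage differences was not tested.

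A probe set was called in a stage comparison where its p, adjusted by Benjamini-Hochberg across the array, was below 0.05. By this rule 1 of 19 annexin probe sets was called in each genotype, against 25.6% of all probe sets in knockout and 27.8% in wild-type embryos. The shared spread takes in the E8.5 wild-type arrays in the knockout comparison too. With the compared arrays fitted alone, more annexin probe sets were called in knockout and fewer in wild-type embryos, and the shares of all probe sets moved likewise. Both E12 arrays lay below both E8.5 arrays in 5 of 19 in knockout embryos (background 36%) and in 4 of 19 in wild-type embryos (background 30.7%). They lay above in 7 of 19 in knockout embryos (background 38.7%) and in 3 of 19 in wild-type embryos (background 30.7%). Both stage comparisons share the E8.5 arrays of the knockout comparison. Of all called probe sets in wild-type embryos 56.4% were lower at E12, and 46.2% after quantile normalization across arrays.

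Anxa1 read 7.30 and 7.66 in E12 knockout embryos, against 4.68 and 4.35 in E8.5 knockout embryos, a log2 difference of 2.97 (SE 1.13, limma adjusted p = 0.103), so both E12 arrays were higher but the test was not passed.
This stage difference in knockout embryos was called with the knockout arrays fitted alone and with array weights, so the call depended on the fit. Leaving out 1 knockout array gave a stage difference between 2.785 and 3.145. In wild-type embryos Anxa1 read 7.76 and 7.49 at E12, against 10.05 and 6.03 at E8.5, a log2 difference of -0.42 (SE 1.13). It was 1.59 without E8.5 wild-type replicate 1 and -2.43 without E8.5 wild-type replicate 2, both called and of opposite sign, and 0.23 after quantile normalization. The order of the 4 group means was thus wild type at E8.5, wild type at E12, knockout at E12 and knockout at E8.5, and the means of the first 3 lay within the span of the 2 E8.5 wild-type arrays. The dimmer Anxa1 probe set (1444016_at) differed by 0.75 (SE 0.28) in knockout and 0.60 (SE 0.28) in wild-type embryos, neither called. In wild-type embryos its sign was thus opposite to that of the brightest probe set.

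Anxa4 read 5.98 and 6.03 in E12 knockout embryos, against 7.40 and 7.62 in E8.5 knockout embryos, a log2 difference of -1.50 (SE 1.02, limma adjusted p = 0.328). In wild-type embryos it read 5.88 and 5.85 at E12, against 10.55 and 6.90 at E8.5, a log2 difference of -2.86 (SE 1.02, limma adjusted p = 0.0826). In this brightest probe set all 4 E12 arrays thus lay below all 4 E8.5 arrays. Neither comparison passed the test in the fit of all arrays. The other Anxa4 probe sets differed by -0.61 (1424176_a_at) and -0.14 (1457658_x_at) in knockout and by -2.67 and -1.66 in wild-type embryos, none of them called. In 1457658_x_at the stages overlapped, with E12 knockout replicate 2 at 3.94 and E8.5 wild-type replicate 2 at 3.52. E8.5 wild-type replicate 1 set most of the spread of this gene. Without that array the brightest probe set differed by -1.50 in knockout and -1.04 in wild-type embryos. In the same fit 1424176_a_at differed by -0.61 and -0.38, and 1457658_x_at by -0.14 and -0.05. Without E8.5 wild-type replicate 2 the brightest probe set differed by -1.50 and -4.69. Anxa5 differed by 1.50 (SE 1.04) in knockout and -0.10 (SE 1.04) in wild-type embryos, Anxa2 by 0.92 (SE 0.90) and -1.24 (SE 0.90), and Anxa3 by 0.32 (SE 0.38) and -0.46 (SE 0.38). Anxa6 differed by -0.59 (SE 0.27) in knockout and 0.12 (SE 0.27) in wild-type embryos, and Anxa8 by 0.54 (SE 0.23) and 0.33 (SE 0.23). The wild-type signs of Anxa2, Anxa3 and Anxa5 turned after quantile normalization, to 0.03, 0.05 and 1.10. Further probe sets of Anxa2, Anxa6 and Anxa8 differed by between 0.05 and 0.35 in knockout embryos. In wild-type embryos they differed by between -0.58 and 0.33, and none was called in either genotype.

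**Figure D4:**
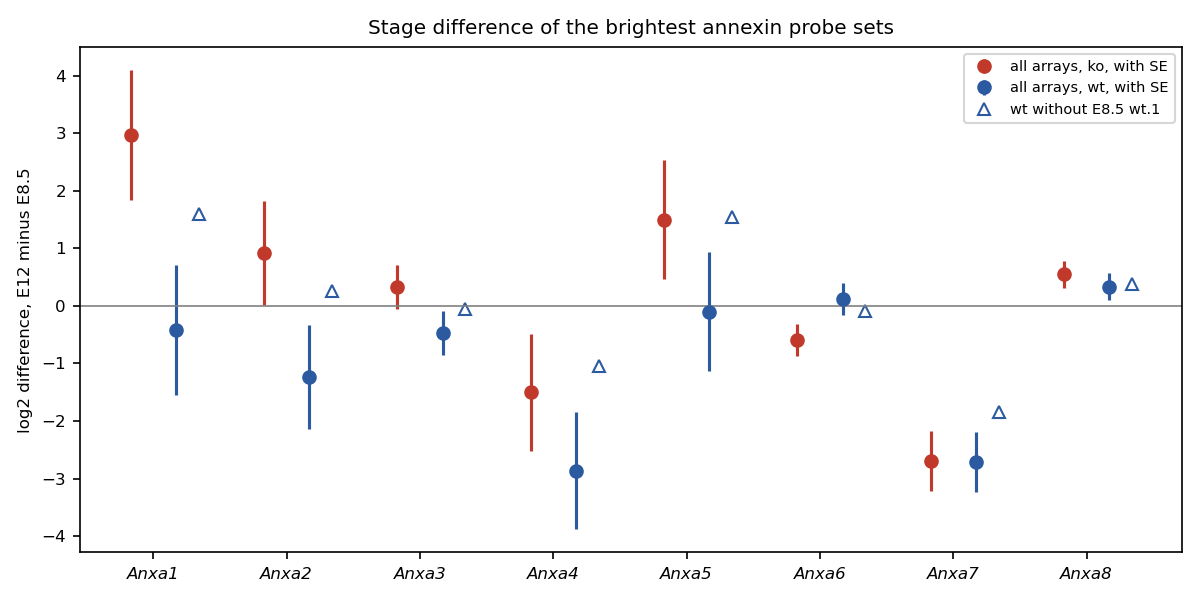
Log2 difference, E12 minus E8.5, of the brightest probe set of each annexin gene in knockout (red) and wild-type embryos (blue), with bars for the SE of the fit of all 8 arrays, and for wild type also without E8.5 wild-type replicate 1 (open triangles). Anxa7 lies at -2.69 in knockout and -2.71 in wild-type embryos, and the wild-type Anxa1 value lies at -0.42 with that array and at 1.59 without it.

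Genes that work with annexins were given by lists. S100 proteins are the small calcium-binding partners of several annexins, and 12 of 13 measured S100 genes read lower in E8.5 knockout embryos (53.1% of all probe sets), with a median of -0.19 and 1 past an absolute t of 3 (2.06% of all). That gene, S100a13, read 5.68 and 5.54 in knockout embryos, against 7.09 and 6.41 in wild-type embryos, without overlap. Wild-type replicate 1 was the highest E8.5 array for 9 of the 13. At E12, 9 of 13 read lower (47.5% of all) and 1 passed an absolute t of 3 (0.655% of all), the granulocyte protein gene S100a8, at 3.92 and 3.92 in knockout embryos, against 5.85 and 5.47 in wild-type embryos. Between stages, S100 genes were called in 4 of 13 in knockout embryos (25.6% of all probe sets) and 6 of 13 in wild-type embryos (27.8% of all). S100a1 was lower at E12 by a log2 difference of -2.99 (SE 0.25) in knockout and -2.14 (SE 0.25) in wild-type embryos. S100a10, the partner of Anxa2, was lower at E12 by -1.38 (SE 0.32) in knockout and -1.63 (SE 0.32) in wild-type embryos, while Anxa2 itself was not called.

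Among 14 genes of membrane repair and annexin partners, 9 read lower and 5 higher in the knockouts at either stage (47.5% of all probe sets read lower at E12 and 53.1% at E8.5), and none passed an absolute t of 3. Between stages 4 of 14 were called in knockout embryos (25.6% of all) and 5 of 14 in wild-type embryos (27.8% of all). Cav1, the coat protein of caveolae, read 8.05 and 8.20 in E12 knockout embryos, against 4.60 and 4.62 in E8.5 knockout embryos, and 7.46 and 7.70 in E12 wild-type embryos, against 4.15 and 4.55 in E8.5 wild-type embryos. Pdcd6ip, an adaptor of the ESCRT machinery that closes membrane wounds, was lower at E12 by a log2 difference of -1.99 (SE 0.28) in knockout and -2.05 (SE 0.28) in wild-type embryos. Of 14 genes for the exposure and recognition of phosphatidylserine, the lipid that annexins bind, 4 were called between stages in each genotype, where 25.6% of all probe sets were called in knockout and 27.8% in wild-type embryos. Axl, a receptor that clears cells showing this lipid, was higher at E12 by 2.34 (SE 0.21) in knockout and 2.43 (SE 0.21) in wild-type embryos. Tmem30a, a subunit of the flippases that keep the lipid inside, was lower at E12 by -2.26 (SE 0.33) in knockout and -2.17 (SE 0.33) in wild-type embryos. In knockout embryos 8 of these 14 read lower at E8.5 (53.1% of all) and 9 at E12 (47.5% of all). Mertk, a related receptor, was the 1 gene of this list past an absolute t of 3 at E8.5 (2.06% of all), and none was at E12 (0.655% of all). It read 5.58 and 5.82 in E8.5 knockout embryos, against 6.33 and 6.22 in E8.5 wild-type embryos.

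Of 7 measured formyl peptide receptor and eicosanoid genes, the pathway Anxa1 acts on, 4 were called higher at E12 in knockout embryos (11.6% of all probe sets) and 5 in wild-type embryos (12.1% of all), and none lower. The means of these 7 genes lay at percentiles 12.1 to 67.8 among all probe sets, so the list held dim genes. Array medians were 5.16 to 5.20 at E12, against 4.96 to 5.01 at E8.5. Alox5, the enzyme that starts leukotriene synthesis, was higher at E12 by 1.50 (SE 0.19) in knockout and 1.54 (SE 0.19) in wild-type embryos. Its activating protein gene Alox5ap read 5.42 and 4.89 in E12 knockout embryos, against 6.79 and 6.19 in E12 wild-type embryos, a log2 difference of -1.34 (SE 0.37) past an absolute t of 3, with a limma adjusted p = 1. None of 6 measured plasminogen system genes was called in a stage comparison (25.6% of all probe sets in knockout and 27.8% in wild-type embryos). In the knockout comparisons none of them passed an absolute t of 3 (2.06% of all at E8.5 and 0.655% at E12).

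The profiles of the annexins over the 8 arrays fell into different shapes, given here as Pearson correlations without a test, since E8.5 wild-type replicate 1 weighs on all of them. Anxa2 ran with Anxa3 (r = 0.91), Anxa5 (r = 0.90) and Anxa1 (r = 0.84), and Anxa4 ran with Anxa7 (r = 0.90). Anxa1 and Anxa7 were nearly unrelated (r = -0.08), and Anxa8 ran against Anxa7 (r = -0.72). Among 11668 other genes with a mean above the array median, the profile most like that of Anxa1 was Osm (r = 0.97), followed by Tnfaip8l1 and Specc1. For Anxa2 the nearest were Plpp1 (r = 0.98), Zfp667 and Litaf, and for Anxa4 they were Tgm1 (r = 0.99), Edem2 and Slc44a4. For Anxa5 they were Depdc5 (r = 0.98), 9930012K11Rik and Dpy19l3, for Anxa7 Mrpl4 (r = 0.997), Reep5 and Tgif2, and for Anxa3 Dip2a (r = 0.96), Tmem186 and Aktip. Anxa6 was nearest to Mta2 (r = 0.93), Proc and Serpinc1, and Anxa8 to Ang4 (r = 0.93), Tbc1d22b and Gabrp.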

How the data were processed

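Total RNA of mouse embryo propers (2 biological replicates in each of 4 groups, per the study's methods) was extracted with Trizol, amplified over 2 rounds and hybridized to Affymetrix whole-genome mouse arrays. The authors normalized and summarized the probes with Robust Multi-array Analysis and deposited linear intensities. For joint normalization of the arrays, software versions and detection calls, nothing is stated in the sources used here. Precision is limited by the small number of arrays, and each p-value reflects only how these arrays scatter, which may in part be technical.

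Intensities were log2-transformed without a pseudocount. After 64 controls were left out of 45101 probe sets, 45037 entered a linear model (limma 3.58.1, R 4.3.3; lmFit and eBayes with 4 group means and 1 shared spread), with no filter on dim probe sets and Benjamini-Hochberg adjustment over all of them. The fit was run on simulated data with the same spread for all probe sets and a change added in the E12 knockout arrays. Those data held no divergent array, so they do not check the fit for one like E8.5 wild-type replicate 1. Knockout comparisons were counted at an absolute t above 3, which is not corrected for multiple tests, and stage comparisons at an adjusted p below 0.05. The platform annotation gave the symbols, which a RefSeq table (GRCm38.p6) brought up to date: 34945 probe sets had 1 symbol, 932 several and 9160 none. The brightest probe set (highest mean over all arrays) stood for a gene where 1 was needed. All annexin probe sets are named, and of each list up to 4 genes past the threshold. The trophoblast genes Prl7a1, Tpbpa, Elf5 and Ascl2 were named outside this rule, for their values on single E8.5 arrays. The members and lists were chosen with earlier results of these data known. Alternatives were quantile normalization, a filter on dim probe sets, the compared arrays alone, a replicate block, a variance trend, array weights and leaving out each array.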

Additional observations from a re-analysis of the deposited data

How the results depend on the processing

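With all arrays kept, 1 annexin probe set passed an absolute t of 3 at E8.5, and none when only the E8.5 arrays were fitted (2.25% of all probe sets). Between stages, the number called was 2 of 11 in wild-type embryos with dim probe sets left out (42% of all) and 0 with only the compared arrays (4.58%), and in knockout embryos 6 with only the compared arrays (44.1%) and 5 with array weights (44.2%), each against 1. Quantile normalization turned the stage difference in wild-type embryos of Anxa1 to 0.23, Anxa2 to 0.03, Anxa3 to 0.047 and Anxa5 to 1.10, and the interaction of Anxa7 to -0.22. The cause was not tested. The labels do not say that a replicate number marks a shared litter, batch or day, and the correlation of same-numbered deviations was 0.37 between the E8.5 groups, 0.17 between the E12 groups and -0.12 to 0.08 between stages, so the numbers were not taken as pairs. A batch shared within a stage was not tested. With the replicate block 2 annexin probe sets passed an absolute t of 3 at E8.5 (2.76% of all), 0 at E12 and 0 for the interaction, and 1 was called between stages in each genotype.

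Leaving out each array in turn gave 0 to 11 probe sets past an absolute t of 3 at E8.5 (1.48% to 10.5% of all), 0 to 0 at E12 (0.286% to 4.73%) and 0 to 8 for the interaction (0.36% to 6.51%), and 0 to 5 called between stages in knockout (5.16% to 35.7%) and 0 to 8 in wild-type embryos (13.6% to 31.5%). The E8.5 and interaction counts of this section use the arrays on which the family was chosen, and nothing is read from them. Their highest values came without E8.5 wild-type replicate 2, which left replicate 1 as the only wild-type array of that stage. The E8.5 knockout difference of the brightest probe set ranged from -3.05 to 0.61 for Anxa4, -3.03 to 0.25 for Anxa5, -1.39 to 0.35 for Anxa7 and -0.056 to 0.18 for Anxa8. At E12 it ranged from -0.32 to 0.036 for Anxa1, -0.026 to 0.43 for Anxa5 and -0.018 to 0.57 for Anxa8. The interaction ranged from -0.47 to 3.19 for Anxa4, -0.043 to 3.24 for Anxa5, -0.85 to 0.89 for Anxa7 and -0.079 to 0.51 for Anxa8. The stage difference ranged from -0.13 to 0.78 for Anxa3 in knockout embryos, and in wild-type embryos from -2.43 to 1.59 for Anxa1, -2.72 to 0.25 for Anxa2, -1.74 to 1.54 for Anxa5 and -0.18 to 0.41 for Anxa6. Of 227 single-gene values with all arrays kept, 214 kept their direction and their side of the threshold, 5 turned, 6 came past the threshold and 2 fell short of it. Of 320 with 1 array left out, these numbers were 271, 21, 17 and 11. Signal over background was not measured here.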

Other observations

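Of the annexins outside the chosen members, Anxa9 was called higher at E12 in both genotypes. It read 5.94 and 5.82 in E12 knockout embryos, against 4.54 and 4.80 in E8.5 knockout embryos, a log2 difference of 1.21 (SE 0.24, limma adjusted p = 0.0144). In wild-type embryos Anxa9 read 5.81 and 5.51 at E12, against 4.40 and 4.97 at E8.5, a log2 difference of 0.97 (SE 0.24, limma adjusted p = 0.0269). Its value on E8.5 wild-type replicate 1 was the lowest of the 8 arrays. Anxa10 and Anxa13 were dim, with Anxa13 at 4.16 and 4.02 in E8.5 knockout embryos, against 4.18 and 4.66 in E8.5 wild-type embryos, and neither was called in any comparison.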
